A study of Mus musculus with 10 samples.

Results

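Mitochondrial ribosomal proteins are the nuclear-encoded proteins of the ribosome that works inside mitochondria. The genes described here are the protein-coding genes whose symbol starts with Mrpl or Mrps followed by a digit, which gave 78 of the 54532 genes in the deposited table and 78 of its 22046 protein-coding genes. By symbol, 49 belong to the large subunit (Mrpl) and 29 to the small subunit (Mrps). By number, 47 were taken as proteins with a counterpart in bacterial ribosomes and 31 as proteins of the mitochondrial ribosome alone. This rule puts Mrps36 among the 31, although its product is part of another complex, as given below.

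RNA sequencing was done on whole obstructed kidneys of male C57BL/6 mice whose left ureter was tied at 8 weeks of age (unilateral ureteral obstruction, UUO) and whose kidneys were taken on day 14. A control group of 5 mice received PBS, and 5 mice received dimethyl malonate (DMM), a precursor of the succinate dehydrogenase inhibitor malonate, at 40 mg/kg into the peritoneum every other day. Both groups were obstructed, so that the comparison is of DMM with PBS within UUO, and it asks whether DMM changes the kidney transcriptome. Each mouse gave 1 library, with total counts from 15722527 to 19475833 per library and a single kidney behind each value.

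Mitochondria carry their own small genome, whose messenger RNAs encode core subunits of the respiratory chain and of ATP synthase. These messages are translated by the mitochondrial ribosome, whose RNA comes from the mitochondrial genome and whose proteins are made in the cytosol and imported. Cells of the proximal tubule are rich in mitochondria and rely on their oxidative metabolism.

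Some libraries stood apart before any gene was compared. The share of all counts on the 78 genes was between 0.207% and 0.241% in 9 libraries and 0.124% in DMM replicate 4, and every 95% Wilson interval reached at most 0.00239 percentage points from its share. DMM replicate 4 also had 0.392% of its counts on the mitochondrial ribosomal RNA genes, against 0.0414% to 0.0743% in the other libraries, and 20029 genes with a count, against 22898 to 24083. The intervals cover counting error only, since PCR copies are not independent molecules. The share of counts from the mitochondrial genome was 2.14, 2.30, 3.66, 1.97 and 2.004% in PBS replicates 1 to 5 and 2.30, 3.79, 4.03, 5.62 and 4.39% in DMM replicates 1 to 5. In this measure PBS replicate 3 stood with the DMM libraries and DMM replicate 1 with the PBS libraries. Those same libraries, PBS replicate 3 and DMM replicate 1, do not enter the group means that the authors deposited, which are weighted sums of the other 8 libraries (their own weight is 0). Why they were left out is not given in the sources used here. A difference over the 8 libraries in anything that follows the mitochondrial share is therefore not independent of the choice of libraries. Genes of the 78 with log2 fold changes in the text below are given over all 10 libraries, over those 8 and over the 8 without DMM replicate 4.

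The 78 genes were expressed at moderate and rather even levels, with 77 of them passing the filter on low counts. On the deposited length-scaled values (FPKM), the mean over 10 libraries had a median of 10.9 over the 77 genes, and it ran from 2.74 to 38.4. By symbol, genes of the large subunit had a median of 13.5 FPKM and those of the small subunit 7.94 FPKM. On the same scale the median was 114 FPKM over 81 tested cytosolic ribosomal protein genes and 41.2 FPKM over 81 tested nuclear genes of the respiratory chain. It was lower in the other tested parts of the mitochondrial translation apparatus, with 3.84 FPKM over 27 assembly factors of the mitochondrial ribosome, 5.90 FPKM over 20 translation factors and 3.80 FPKM over 17 aminoacyl-tRNA synthetases.

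The highest of the 78 by FPKM was Mrpl34 (ENSMUSG00000034880, chr8:71464959-71465747, plus strand), the counterpart of bacterial L34, with 38.4 ± 11.8 FPKM (mean ± SD, n = 10). It was followed by Mrps21, the counterpart of bacterial S21, with 33.7 ± 9.02 FPKM, and by Mrpl2, a protein of the region where peptide bonds are formed, with 31.5 ± 7.43 FPKM. These levels overlapped within their SD, which was taken over the same 10 libraries for each gene. The order of the highest genes within single libraries was not tested. The lowest library of these genes was DMM replicate 4 in each case, with 5.56, 7.85 and 16.6 CPM (counts scaled to a common library size with edgeR's TMM factors). At the low end stood Mrps10, the counterpart of bacterial S10, with 2.74 ± 0.277 FPKM and Mrps25, a protein of the mitochondrial small subunit, with 2.91 ± 0.572 FPKM. Mrpl53 (ENSMUSG00000030037, chr6:83109040-83109939, plus strand) had 0 counts in each of the 10 libraries, which allows up to 0.154 to 0.191 CPM per library at 3 counts, and it was not tested. It overlaps Gm42688 on the same strand, a gene with 119 counts over the 10 libraries.

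The list as a whole did not separate the groups when all 10 libraries were used. The mean log2 CPM of the 77 tested genes, as a difference from the PBS mean, was -0.01, -0.01, 0.12, -0.06 and -0.03 in PBS replicates 1 to 5 and -0.04, 0.13, 0.22, -0.67 and 0.19 in DMM replicates 1 to 5. DMM replicates 2, 3 and 5 were above every PBS library, DMM replicate 1 lay within the PBS range, and DMM replicate 4 was far below all other libraries, so that the groups overlap. The PBS values were also not even, with replicate 3 close to DMM replicate 2. The DMM mean minus the PBS mean was -0.04, with an SD between mice of 0.27. A correction of each library for gene length gave a mean difference of 0.02, so that the sign is not settled. In the 8 libraries the difference was -0.01 with an SD of 0.30, and it was 0.004 with size factors of the RLE type.

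**Figure D1:**
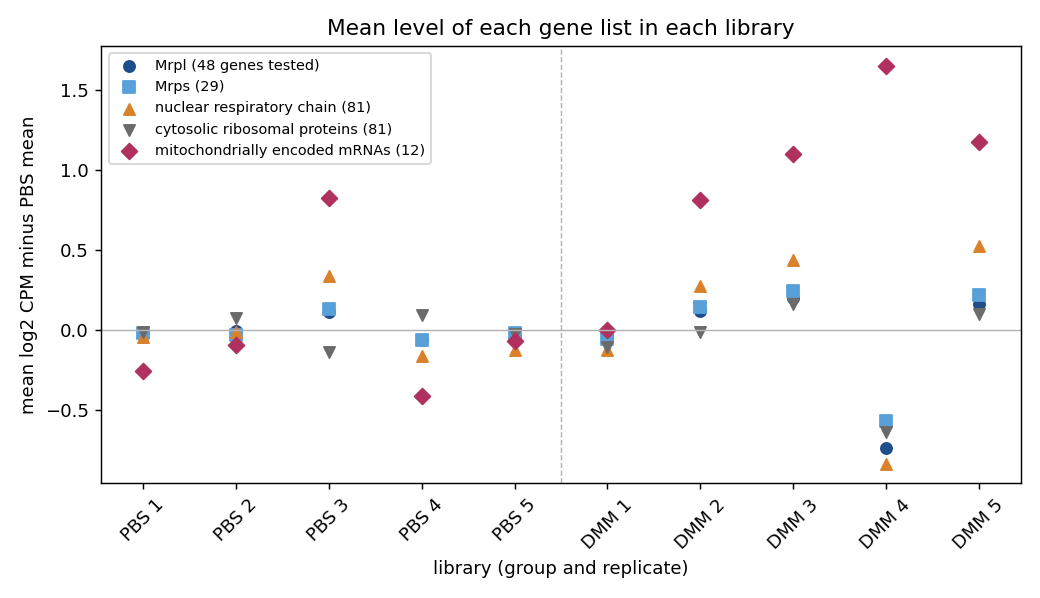
Mean log2 CPM of each gene list in each of the 10 libraries, as a difference from the mean of the PBS libraries. Points stand for libraries; the Mrpl and Mrps points lie at -0.73 and -0.57 in DMM replicate 4, where the mitochondrially encoded messages lie at 1.65.

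A gene was called when edgeR gave it an adjusted p below 0.05 and it differed by more than 1.5-fold. Of the 77 tested genes, 0 were called over all 10 libraries, against 0 of 16505 tested genes, or 0%. At an unadjusted p under 0.05, 0 of the 77 were higher in DMM kidneys, against 4.40% of all tested genes, and 0 were lower, against 6.49%. DESeq2 called 41 genes in all and 0 of the 77. It placed 1 of the 77 higher at an unadjusted p under 0.05, against 6.01% of all tested genes. The median log2 fold change of DMM over PBS was -0.003 over the 77 and 0.02 over all tested genes, with 38 of the 77 above 0 and 39 below. The smallest adjusted p of the 77 was 0.490, that of Mrps18b (edgeR). In each of the 77 the values of the groups overlapped, and the share of all tested genes with such an overlap is not given here.

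Over the 8 libraries 0 of the 77 were called, against 1042 of 16550 tested genes, or 6.30%. Without the fold threshold 0 of the 77 passed an adjusted p under 0.05, against 7.17% of all tested genes. DESeq2 called 0 of the 77 too, against 1663 of 16550 tested genes. It placed 3 of them (Mrps35, Mrpl39 and Mrpl42) higher with an adjusted p below 0.05, or 3.90%, against 6.77% of all tested genes. At an unadjusted p under 0.05 edgeR placed 4 of the 77 higher in DMM kidneys (Mrps35, Mrpl42, Mrpl39 and Mrps18b), against 10.8% of all tested genes, and 0 lower, against 10.8%. The median log2 fold change was 0.03 over the 77 and 0.02 over all tested genes, with 48 above 0 and 29 below. With library size alone as the scaling, 30 of the 77 were above 0 and 47 below, and the median of all tested genes moved by -0.11; relative to all tested genes, the median of the 77 was then 0.03 higher.

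Leaving out single libraries changed this picture for 1 of them, DMM replicate 4, whose position was noticed after the data were seen. Without it, 7 of the 8 libraries remain, and the median log2 fold change of the 77 was 0.20 against -0.01 over all tested genes, with 74 of the 77 above 0 and 3 below. The mean difference was then 0.21 with an SD between mice of 0.03. These 7 libraries also lack PBS replicate 3, the highest PBS library for the 77 (0.12 from the PBS mean). They lack DMM replicate 1 too, which stood at -0.04, below the DMM libraries that remain. The set is thus not independent of this difference and its SD. In that fit 24 of the 77 had higher values under DMM with an adjusted p below 0.05 (edgeR), or 31.2%, against 14.3% of all tested genes, and 0 were lower, against 13.8%. With the fold threshold 1 of the 77 was called, Mrps6, against 14.3% of all tested genes. When TMM was replaced by library size, 15 of the 77 (19.5%) were higher by that test, against 11.4% of all tested genes. A log2 fold change above 0 was then found for 67 of the 77 and for 40.2% of all tested genes. Leaving out any other of the 8 libraries left 0 of the 77 at an adjusted p under 0.05, with medians between -0.03 and 0.04. All tested genes that passed in those fits ran from 407 of 16918 (without PBS replicate 5) to 995 of 16923 (without DMM replicate 2). Over all 10 libraries, leaving out DMM replicate 4 gave a median of 0.13, with 69 above 0 and 8 below, and 0 called, against 0% of all tested genes. At an adjusted p under 0.05, 0 of the 77 and 0 of all tested genes passed, with 0.256 the smallest of the 77 (edgeR). At an unadjusted p under 0.05, 13 of the 77 were then higher, against 7.35% of all tested genes, and 0 lower, against 9.65%. Leaving out any other of the 10 gave medians between -0.05 and 0.04 and 0 of the 77 called. Of all tested genes 0 were called in those fits too, except 486 of 16760 without DMM replicate 1. The mean difference in the 9 libraries without DMM replicate 4 was 0.12 with an SD of 0.10.

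**Figure D2:**
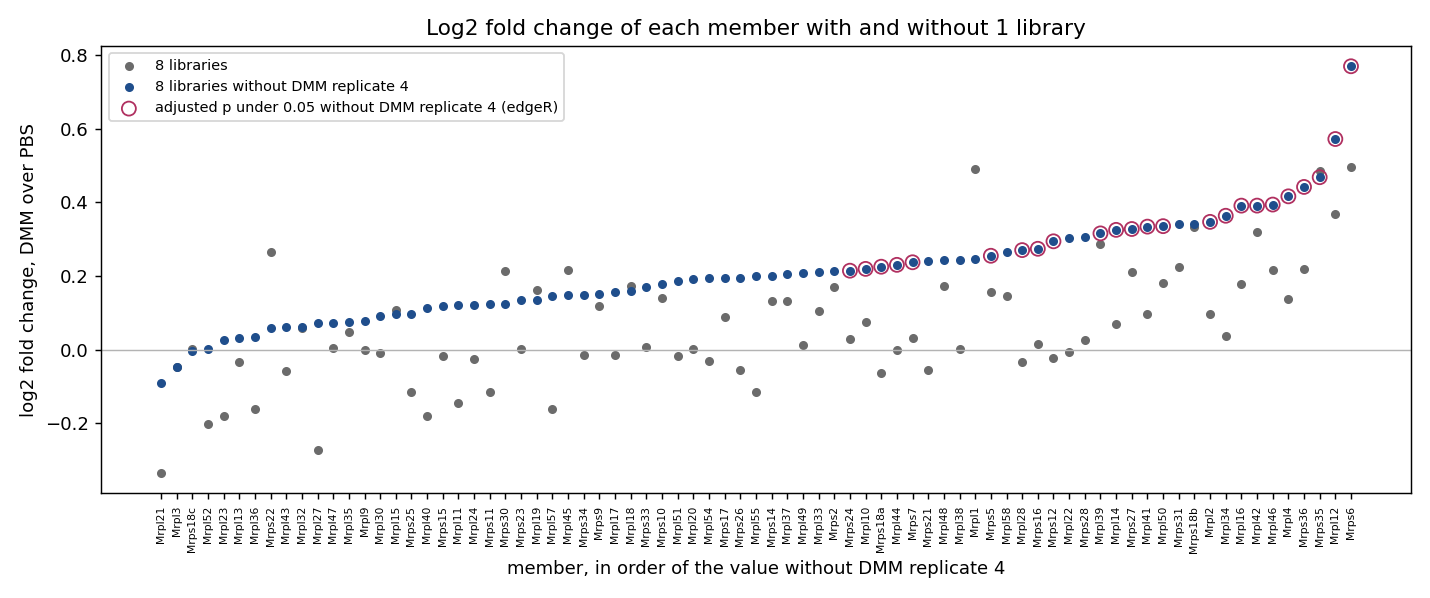
Log2 fold change of DMM over PBS for each of the 77 tested genes over the 8 libraries and over the same libraries without DMM replicate 4, in the order of the latter. Points stand for genes and circles for an adjusted p under 0.05 (edgeR) without that library; 24 genes are circled, from 0.21 to 0.77.

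Taken by symbol, both subunits had their highest value in DMM replicate 3 and their lowest in DMM replicate 4. The 29 genes counted as small subunit therefore hold Mrps18a, Mrps30 and Mrps36, whose products have another place, as given below. The 48 tested genes of the large subunit had a mean difference from the PBS mean of -0.01, -0.003, 0.12, -0.06 and -0.04 in PBS replicates 1 to 5 and -0.04, 0.12, 0.20, -0.73 and 0.17 in DMM replicates 1 to 5. The 29 genes of the small subunit stood at -0.02, -0.03, 0.13, -0.06 and -0.02 in PBS replicates 1 to 5 and -0.05, 0.14, 0.24, -0.57 and 0.22 in DMM replicates 1 to 5. In each subunit the groups overlap, with PBS replicate 3 the highest of the PBS libraries. Over the 8 libraries without DMM replicate 4, 14 of 48 large-subunit genes and 10 of 29 small-subunit genes were higher at an adjusted p under 0.05 (edgeR), against 14.3% of all tested genes, with medians of 0.19 and 0.21. With that library, 0 of 48 and 0 of 29 passed, against 7.17% of all tested genes, and 2 and 2 were higher at an unadjusted p under 0.05, against 10.8%. Genes with a bacterial counterpart and genes of the mitochondrial ribosome alone had medians of 0.03 and 0.06 over the 8 libraries, and of 0.20 and 0.21 without DMM replicate 4. Whether subunits or kinds differ from each other was not tested.

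The 78 genes lie on 17 chromosomes, at positions of the build GRCm38 (mm10) that equal those of GENCODE release M21 in 73 cases. Chromosome 11 holds 11 of them, chromosome 17 holds 8 and chromosome 6 holds 7. The strand setting of the counts is not given in the sources used here, and 23 of the 78 overlap a gene with at least 100 counts on the opposite strand, while 4 overlap one on the same strand. Values of the overlapping genes are uncertain for that reason. Among the genes named below, the opposite strand holds Eme1 at Mrpl27, Wdfy1 at Mrpl44, Ict1os at Mrpl58, Ighmbp2 at Mrpl21, Rsph9 at Mrps18a, Gm16279 at Mrps18b, Gm37637 at Mrps22, Nr2c2 at Mrps25, Mapk8ip3 at Mrps34 and Mrpl46 at Mrps11. The same strand holds Slc5a3 and Gm16310 at Mrps6.

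In the large subunit, Mrpl12 is the counterpart of the bacterial stalk protein that recruits translation factors, and it also binds the mitochondrial RNA polymerase. Mrpl12 (ENSMUSG00000039640, chr11:120484613-120489065, plus strand) stood at 33.7, 36.6, 48.1, 29.95 and 30.1 CPM in PBS replicates 1 to 5 and 36.5, 47.1, 52.1, 23.1 and 46.0 CPM in DMM replicates 1 to 5. PBS replicate 3 and DMM replicates 2, 3 and 5 were high, DMM replicate 4 was the lowest library, and the groups overlap. Mrpl12 had a log2 fold change of 0.20 (SE 0.21) over all 10 libraries, with an adjusted p of 0.716 (edgeR), and 0.37 (SE 0.23) over the 8, with 0.406. It was 0.57 (SE 0.09) over the 7 libraries that remain without DMM replicate 4, with an adjusted p of 0.00205 (edgeR), and each of the 3 DMM libraries was above each of the 4 PBS libraries. A correction of the 8 libraries for gene length, tested by limma, gave 0.42 with an adjusted p of 0.0690, and a correction for length and GC content, added after the data were seen, gave 0.54 with 0.00727.

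Mrpl42 and Mrpl39, proteins of the mitochondrial large subunit without a bacterial counterpart, were among the smallest p over the 8 libraries. Mrpl42 (ENSMUSG00000062981, chr10:95480805-95501940, minus strand) stood at 42.6, 42.3, 55.3, 38.1 and 41.4 CPM in PBS replicates 1 to 5 and 32.5, 51.0, 55.1, 43.6 and 55.5 CPM in DMM replicates 1 to 5. DMM replicate 1 was its lowest library, and PBS replicate 3 was close to the high DMM libraries. The log2 fold change of Mrpl42 was 0.11 (SE 0.16) over all 10 libraries (adjusted p 0.784, edgeR) and 0.32 (SE 0.11) over the 8 (0.137). Within the 8 libraries its 4 DMM values were each above its 4 PBS values. Mrpl39 (ENSMUSG00000022889, chr16:84717576-84735742, minus strand) stood at 29.8, 28.4, 33.4, 25.2 and 28.2 CPM in PBS replicates 1 to 5 and 28.4, 36.4, 33.4, 32.0 and 34.5 CPM in DMM replicates 1 to 5. DMM replicate 2 was the highest and PBS replicate 4 the lowest, and PBS replicate 3 and DMM replicate 1 each lay within the range of the other group. Its log2 fold change was 0.18 (SE 0.11) over all 10 libraries (adjusted p 0.536, edgeR) and 0.29 (SE 0.11) over the 8 (0.156). Without DMM replicate 4 the log2 fold change over the 8 was 0.39 for Mrpl42 and 0.32 for Mrpl39, with adjusted p of 0.00283 and 0.0155 (edgeR). The length correction of the 8 libraries gave 0.36 (adjusted p 0.0389, limma) for Mrpl42 and 0.37 (0.0827) for Mrpl39, and that for length and GC gave 0.26 (0.243) and 0.34 (0.0682).

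Mrpl1, the protein of the mobile L1 stalk where spent transfer RNA leaves, went the other way in DMM replicate 4. Mrpl1 (ENSMUSG00000029486, chr5:96209493-96266727, plus strand) stood at 18.4, 18.4, 19.2, 13.4 and 16.1 CPM in PBS replicates 1 to 5 and 17.2, 17.6, 20.5, 34.3 and 20.7 CPM in DMM replicates 1 to 5. DMM replicate 4 was the highest library and all others lay between 13.4 and 20.7 CPM, with groups that overlap. Its log2 fold change, 0.37 (SE 0.20) over all 10 libraries, was the largest positive one of the 77 in that set, with an adjusted p of 0.513 (edgeR). It was 0.49 (SE 0.22) over the 8 (0.244), 0.25 (SE 0.13) over the 8 without DMM replicate 4 (0.199), and 0.15 over the 9 libraries that remain of all 10.

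In edgeR, Mrpl27, which reaches the site of peptide bond formation, had the largest negative log2 fold change of the 77 over all 10 libraries. Mrpl21 had it over the 8 and without DMM replicate 4 (edgeR). The length correction of the 8 libraries gave -0.51 for Mrpl27 and -0.34 for Mrpl21 (limma). That for length and GC gave -0.48 and -0.28. Mrpl27 (ENSMUSG00000024414, chr11:94653767-94660089, plus strand) stood at 32.4, 29.02, 32.9, 26.9 and 26.9 CPM in PBS replicates 1 to 5 and 25.7, 26.8, 32.3, 4.59 and 31.8 CPM in DMM replicates 1 to 5. DMM replicate 4 was far below any other library, and the remaining libraries overlapped. Its log2 fold change was -0.29 (SE 0.38) over all 10 libraries (adjusted p 0.769, edgeR), -0.27 (SE 0.47) over the 8 (0.783), and 0.07 (SE 0.10) over the 8 without DMM replicate 4 (0.626). Mrpl21 (ENSMUSG00000024829, chr19:3282901-3292837, plus strand), the counterpart of bacterial L21, stood at 22.9, 22.0, 22.2, 23.3 and 20.6 CPM in PBS replicates 1 to 5 and 21.6, 23.0, 21.2, 7.85 and 18.4 CPM in DMM replicates 1 to 5. DMM replicate 4 was the lowest library and DMM replicate 5 the next, and the other libraries overlapped. Mrpl21 had a log2 fold change of -0.27 (SE 0.24) over all 10 (adjusted p 0.654, edgeR), -0.33 (SE 0.29) over the 8 (0.548), and -0.09 (SE 0.10) over the 8 without DMM replicate 4 (0.545).

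Other named genes of the large subunit also had their lowest value in DMM replicate 4. Mrpl40, whose human gene lies in the chromosomal deletion region of DiGeorge syndrome, was at 6.40 CPM in DMM replicate 4 and between 20.6 and 26.1 CPM in the other libraries. Mrpl44, which resembles ribonuclease III and whose human variants affect the heart, was at 12.6 CPM there and between 24.9 and 33.1 CPM elsewhere. Mrpl52 and Mrpl23 were at 11.9 and 12.6 CPM in that library, and Mrpl58, a peptidyl-tRNA hydrolase that frees stalled ribosomes, at 20.2 CPM. The log2 fold changes over all 10 libraries, over the 8 and over the 8 without DMM replicate 4 were -0.19, -0.18 and 0.11 for Mrpl40, -0.05, -0.00 and 0.23 for Mrpl44 and -0.12, -0.20 and 0.002 for Mrpl52. In the same order they were -0.12, -0.18 and 0.03 for Mrpl23 and 0.03, 0.14 and 0.27 for Mrpl58. With DMM replicate 4 the adjusted p was 0.643 or more in each of these 5 (edgeR). Without it Mrpl44 passed over the 8, with 0.0387, and Mrpl58 had 0.0571.

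In the small subunit, Mrps35, a protein of the mitochondrial ribosome alone, came closest to the threshold over the 8 libraries. Mrps35 (ENSMUSG00000040112, chr6:147042764-147073991, plus strand) stood at 27.1, 26.8, 36.3, 20.5 and 28.5 CPM in PBS replicates 1 to 5 and 23.3, 36.6, 35.3, 37.3 and 34.8 CPM in DMM replicates 1 to 5. DMM replicates 2 to 5 were high, DMM replicate 1 lay among the PBS libraries, and PBS replicate 3 lay among the DMM libraries. The log2 fold change of Mrps35 was 0.27 (SE 0.17) over all 10 libraries (adjusted p 0.555, edgeR) and 0.48 (SE 0.13) over the 8 (0.0539), where each of the 4 DMM values was above each of the 4 PBS values. DESeq2 gave an adjusted p of 0.00403 over the 8, and protein-coding genes alone in edgeR gave 0.0476, with a fold change under 1.5 in each. The length correction gave 0.41 (adjusted p 0.116, limma), and that for length and GC gave 0.32 (0.318), so that passing depended on the method. Its log2 fold change over the 8 was 0.47 without DMM replicate 4, with an adjusted p of 0.0125 (edgeR).

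Mrps6 (ENSMUSG00000039680, chr16:92058270-92112227, plus strand), the counterpart of bacterial S6, stood at 26.2, 23.7, 32.8, 26.9 and 20.3 CPM in PBS replicates 1 to 5 and 24.0, 30.1, 46.9, 12.8 and 47.1 CPM in DMM replicates 1 to 5. DMM replicates 3 and 5 were high, DMM replicate 4 was the lowest library, and the groups overlap. Its log2 fold change was 0.31 (SE 0.31) over all 10 libraries (adjusted p 0.691, edgeR), 0.50 (SE 0.35) over the 8 (0.464), and 0.77 (SE 0.16) over the 8 without DMM replicate 4 (0.00804). Mrps6 shares its positions with Slc5a3, a myo-inositol transporter gene on the same strand, whose log2 fold change was 1.25 over all 10 libraries (adjusted p 0.387, edgeR) and 1.64 (SE 0.41) over the 8 (0.0464). Reads on positions shared by both genes were not told apart here, and the part of Slc5a3 in the value of Mrps6 was not tested.

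The genes Mrps18a, Mrps18b and Mrps18c each resemble bacterial S18, and in mammals the protein of Mrps18a sits in the large subunit despite its name. Mrps18b (ENSMUSG00000024436, chr17:35910379-35916389, minus strand) stood at 8.42, 9.65, 10.2, 10.9 and 10.1 CPM in PBS replicates 1 to 5 and 9.75, 11.6, 12.1, 12.1 and 13.4 CPM in DMM replicates 1 to 5. DMM replicates 2 to 5 were above every PBS library, and DMM replicate 1 lay within the PBS range. Mrps18b had a log2 fold change of 0.26 (SE 0.13) over all 10 libraries (adjusted p 0.490, edgeR), 0.33 (SE 0.14) over the 8 (0.211), and 0.34 (SE 0.13) over the 8 without DMM replicate 4 (0.0733). Mrps18a was at 9.79 CPM in DMM replicate 4 and between 27.8 and 36.3 CPM in the other libraries, with a log2 fold change of -0.05 over all 10 and -0.06 over the 8. Over the 8 without that library it was 0.23 (SE 0.07), with an adjusted p of 0.0481 (edgeR). Mrps18c lay between 8.53 and 11.2 CPM in all 10 libraries, with log2 fold changes of -0.05, 0.003 and -0.004 over all 10, over the 8 and over the 8 without DMM replicate 4. It was among the few named genes that DMM replicate 4 did not set apart, at 10.1 CPM.

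Mrps12, the counterpart of the bacterial protein S12 at the site where codons are read, was even in the PBS libraries. Mrps12 (ENSMUSG00000045948, chr7:28739641-28741820, minus strand) stood at 20.7, 21.9, 22.5, 21.7 and 21.3 CPM in PBS replicates 1 to 5 and 22.3, 26.0, 25.2, 5.56 and 27.5 CPM in DMM replicates 1 to 5. DMM replicates 2, 3 and 5 were above every PBS library, DMM replicate 1 was within the PBS range, and DMM replicate 4 was far below the rest. The log2 fold change of Mrps12 was -0.02 (SE 0.33) over all 10 libraries (adjusted p 0.983, edgeR) and -0.02 (SE 0.40) over the 8 (0.981). It was 0.29 (SE 0.07) over the 8 when DMM replicate 4 was left out, with an adjusted p of 0.0166 (edgeR), and 0.22 over all 10.

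Human variants in MRPS16, MRPS22 and MRPS34 cause deficiencies of oxidative phosphorylation. Mrps16 was at 9.48 CPM in DMM replicate 4 and between 20.4 and 28.1 CPM in the other libraries. Mrps22 was the reverse, at 28.8 CPM in that library and between 15.5 and 20.2 CPM elsewhere. Mrps34 was at 9.60 CPM there and between 14.2 and 17.3 CPM elsewhere. The log2 fold changes over all 10 libraries, over the 8 and over the 8 without DMM replicate 4 were 0.02, 0.02 and 0.27 for Mrps16, 0.14, 0.26 and 0.06 for Mrps22 and -0.06, -0.02 and 0.15 for Mrps34. Over the 8 without that library Mrps16 passed, with an adjusted p of 0.0412 (edgeR), while Mrps22 and Mrps34 had 0.683 and 0.264. In the same order of sets, Mrps11, the counterpart of bacterial S11, had -0.16, -0.12 and 0.12, Mrps10 0.11, 0.14 and 0.18 and Mrps25 -0.12, -0.12 and 0.10. The highly expressed Mrps21, Mrpl2 and Mrpl34 had -0.08, -0.06 and 0.24, 0.06, 0.10 and 0.35, and -0.07, 0.04 and 0.36. Of these, Mrpl2 and Mrpl34 passed over the 8 without DMM replicate 4, with adjusted p of 0.0130 and 0.01002 (edgeR), and Mrps21 had 0.0782.

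The symbol does not place every product in the small subunit. Mrps30 encodes a protein of the large subunit, and the product of Mrps36 is part of the 2-oxoglutarate dehydrogenase complex. Mrps36 (ENSMUSG00000061474, chr13:100735955-100744659, minus strand) stood at 16.05, 14.6, 22.0, 10.9 and 14.8 CPM in PBS replicates 1 to 5 and 17.2, 17.5, 20.1, 8.28 and 19.7 CPM in DMM replicates 1 to 5. PBS replicate 3 was the highest library, DMM replicate 4 the lowest and PBS replicate 4 the next, so that the groups overlap. Mrps36 had a log2 fold change of 0.08 (SE 0.25) over all 10 libraries (adjusted p 0.905, edgeR), 0.22 over the 8 (0.688), and 0.44 (SE 0.14) over the 8 without DMM replicate 4 (0.0416). Mrps30 was highest in DMM replicate 4, with 24.9 CPM, while the others had 15.7 to 20.9 CPM, with a log2 fold change of 0.20 (SE 0.11) over all 10 (adjusted p 0.528, edgeR), 0.21 over the 8 and 0.12 over the 8 without that library.

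Within single libraries, DMM replicate 4 spread the 77 genes apart. The SD over genes of the difference from the PBS mean was 0.73 in this library and between 0.09 and 0.16 in the other 9. It held the lowest value of 57 of the 77 genes and the highest of 7, and 25 genes were more than 1 log2 unit below their PBS mean. The range in it was from -2.65 for Mrpl27 to 1.01 for Mrpl1, with 14 genes above 0. DMM replicate 3 held the highest value of 24 genes and DMM replicate 5 that of 18.

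These differences went along with gene length and base composition. The shortest 26 of the 77 genes (607 to 1664 bp), the middle 25 and the longest 26 (3332 to 8631 bp) had mean differences of -1.12, -0.70 and -0.20 in DMM replicate 4. In DMM replicate 3 the same groups had 0.28, 0.18 and 0.19. By GC content of the longest transcript, the lowest, middle and highest groups had -0.25, -0.63 and -1.14 in DMM replicate 4, and 0.18, 0.23 and 0.25 in DMM replicate 3. Across the 77 genes Pearson's r of the difference in DMM replicate 4 was 0.57 with log length and -0.54 with GC, and over all tested genes it was 0.35 and -0.43. Length and GC are themselves related across the 77 genes (r = -0.63), and genes are not independent replicates. The 78 genes are short, with a median deposited length of 2213.5 bp against 3422 bp over all protein-coding genes. The part of length, GC content or RNA quality in the low level of the list in DMM replicate 4 was not tested.

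**Figure D3:**
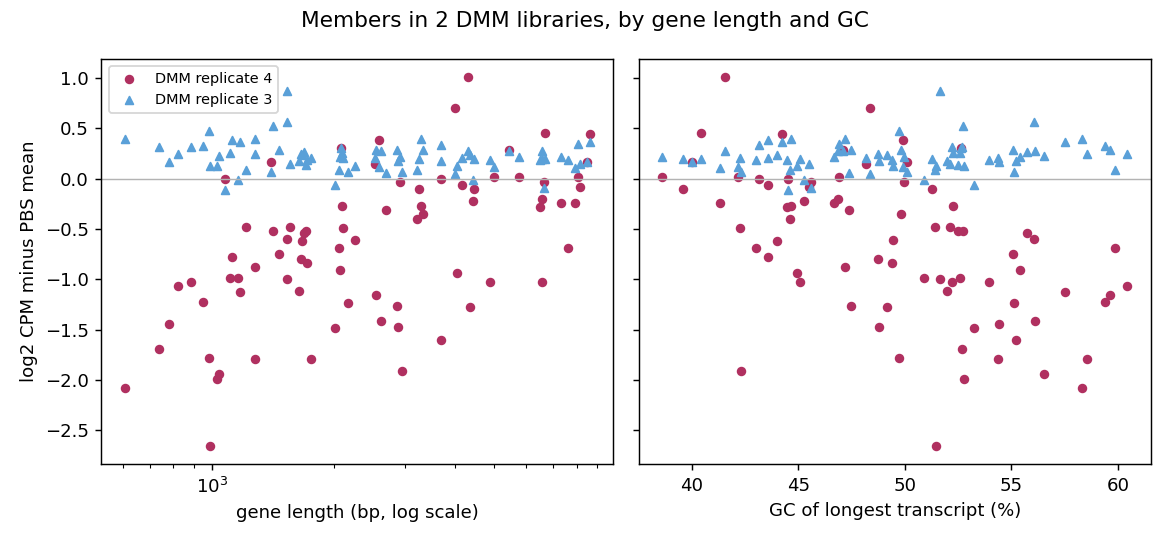
Difference of each of the 77 tested genes from its PBS mean in log2 CPM, against deposited gene length (log axis, bp) and against the GC content of its longest transcript (%), in DMM replicates 4 and 3. Points stand for genes; in DMM replicate 4 they span -2.65 to 1.01, and in DMM replicate 3 -0.11 to 0.87.

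Many of the 78 genes share their promoter region with a neighbour. A protein-coding gene that runs in the other direction starts within 1000 bp of 19 of the 78 (24.4%), as for 1512 of all protein-coding genes (6.86%). Mrps12 starts 172 bp from Sars2, the mitochondrial seryl-tRNA synthetase, and Mrpl43 starts 116 bp from Twnk, the helicase that copies mitochondrial DNA. Mrpl49 lies 137 bp from Fau, which encodes a cytosolic ribosomal protein, and Mrpl32 lies 75 bp from the proteasome gene Psma2. The log2 fold changes of these neighbours over the 8 libraries were -0.21 for Sars2, 0.25 for Twnk, -0.19 for Fau and -0.14 for Psma2, each at an adjusted p of 0.290 or more (edgeR). Mitd1, chosen after its values were seen and placed 66 bp from Mrpl30, had -1.72 (SE 0.16) over the 8 libraries (adjusted p 0.000581, edgeR) and -1.17 (SE 0.33) over all 10 (0.378). Over all 10 libraries, over the 8 and over the 8 without DMM replicate 4, Mrpl30 itself had -0.11, -0.01 and 0.09, Mrpl43 -0.02, -0.06 and 0.06, Mrpl49 -0.04, 0.01 and 0.21 and Mrpl32 0.02, 0.06 and 0.06.

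The promoters of the 78 genes were searched for short motifs of factors known for nuclear genes of mitochondria. RefSeq promoter windows of GRCm38.p6, from 250 bases before to 50 after the start, matched 69 of the 78 symbols with 75 windows. The motifs, read on both strands, were CGCANGCG for NRF1, CCGGAAG for the ETS family with GABPA, AAGATGGCG for YY1 and AAGGTCA for estrogen-related receptors. The motif of NRF1 was in 20 of 75 windows (26.7%) against 8.21% of all 32851 windows, and that of the ETS family in 26 (34.7%) against 8.86%. The YY1 motif was in 8 (10.7%) against 1.40%, and the receptor motif in 4 (5.33%) against 4.72%. At least 1 of the first 3 was in 44 windows (58.7%) against 16.5%. Matches of different motifs overlapped in 0 of the 75 windows. The windows of the 78 genes are also richer in GC, with a median of 58.7% against 52.7%. A match describes letters and not binding.

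Printed below are 4 of these promoters, from 100 bases before to 20 after the start, 5′ to 3′ in lower case, with motif matches in capitals. They were chosen since their genes carry the values above. Mrpl12 (chr11:120484537-120484656 on the plus strand) shows an NRF1 match, and Mrpl27 (chr11:94653691-94653810 on the plus strand) and Mrps12 (chr7:28741802-28741921 on the minus strand) show an ETS match. Mrps18a (chr17:46110904-46111023 on the plus strand) shows an ETS match before the start and a YY1 match after it.
Mrpl12: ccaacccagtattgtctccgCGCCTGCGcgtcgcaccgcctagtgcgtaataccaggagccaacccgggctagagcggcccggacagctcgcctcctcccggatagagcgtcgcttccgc
Mrpl27: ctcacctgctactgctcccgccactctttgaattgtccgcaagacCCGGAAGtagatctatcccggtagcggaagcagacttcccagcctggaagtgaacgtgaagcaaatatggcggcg
Mrps12: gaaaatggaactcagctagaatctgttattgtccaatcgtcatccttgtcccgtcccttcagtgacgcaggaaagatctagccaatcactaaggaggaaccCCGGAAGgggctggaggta
Mrps18a: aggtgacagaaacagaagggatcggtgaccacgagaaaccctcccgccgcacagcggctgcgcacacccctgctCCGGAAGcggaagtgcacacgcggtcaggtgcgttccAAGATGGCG

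Genes with and without such matches both had their lowest value in DMM replicate 4, as Mrpl27 and Mrps12 with a match and Mrps6 and Mrps36 without one show. No match says only that these letters are not in the window.

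The remaining proteins of the mitochondrial ribosome carry other symbols, namely Dap3, Ptcd3, Chchd1, Aurkaip1 and Gadd45gip1. These 5 had a median log2 fold change of 0.04 over all 10 libraries and 0.06 over the 8, with 0 at an adjusted p or an unadjusted p under 0.05 (edgeR). Of all tested genes, 0 passed an adjusted p over all 10, and 7.17% did over the 8, in either direction. At an unadjusted p, 4.40% were higher and 6.49% lower over all 10, and 10.8% and 10.8% over the 8. Without DMM replicate 4 the median over the 8 was 0.20, close to that of the 77, and 1 of 5 passed, Gadd45gip1, at 0.44, against 0.22 with that library. In that fit 14.3% of all tested genes were higher at an adjusted p under 0.05. Ptcd3 was at 66.9 CPM in DMM replicate 4 and between 29.8 and 35.2 CPM in the others. Assembly factors of the ribosome, of which 27 of 28 were found in the table, had medians of 0.01 over all 10 libraries, 0.02 over the 8 and 0.15 without DMM replicate 4. In that last fit 4 of 27 were higher at an adjusted p under 0.05, against 14.3% of all tested genes. Among them were the protease Lonp1 at 0.39 and Fastkd2 at 0.35. Over the 8 with that library 0 passed, against 7.17% of all tested genes in either direction. At an unadjusted p under 0.05, 3 were then higher, against 10.8%.

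Translation factors and aminoacyl-tRNA synthetases act with the ribosome on messages and transfer RNAs. Of 20 tested translation factors (21 listed), 1 was called higher over the 8 libraries, Lrpprc, which stabilises mitochondrial messages. Lrpprc stood at 78.4, 81.6, 101, 64.2 and 72.9 CPM in PBS replicates 1 to 5 and 67.6, 105, 110.2, 175 and 109 CPM in DMM replicates 1 to 5. DMM replicate 4 was its highest library, unlike for most of the 77. Its log2 fold change was 0.75 (SE 0.18) over the 8 (adjusted p 0.0429, edgeR), 0.54 without DMM replicate 4, which is under the fold threshold, and 0.51 over all 10 (0.438). The median of these factors was 0.13 over all 10 libraries, 0.22 over the 8 and 0.22 over the 8 without DMM replicate 4, and 9 of 20 were higher at an adjusted p under 0.05 without DMM replicate 4, against 14.3% of all tested genes, and 1 of 20 with it, against 7.17% in either direction. The 17 aminoacyl-tRNA synthetases had medians of 0.14, 0.20 and 0.24 in the same sets. Over the 8, 0 passed an adjusted p under 0.05, against 7.17% of all tested genes in either direction. At an unadjusted p under 0.05, 4 were higher there, against 10.8%. Without DMM replicate 4, 5 of 17 were higher at an adjusted p under 0.05 (edgeR), against 14.3% of all tested genes. The 77 had 0.20 in the last of these sets, and whether the lists differ from the 77 was not tested. The largest of the named synthetases there were Nars2 at 0.50 and Iars2 at 0.35, against 0.55 and 0.33 with DMM replicate 4.

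The RNAs that the mitochondrial ribosome reads had a median log2 fold change of 0.96 over all 10 libraries. Of 12 tested messages (13 listed), 0 passed an adjusted p and 10 were higher at an unadjusted p under 0.05 (edgeR). Among all tested genes, 4.40% were higher at an unadjusted p under 0.05. Over the 8 libraries 12 of 12 were called higher, against 6.30% of all tested genes in either direction, with a median of 1.49. These 8 leave out PBS replicate 3 and DMM replicate 1, which stood with the other group in the share of mitochondrial counts, so that the set and this result are not independent. The most abundant message, mt-Co1, had the smallest log2 fold change of the 12, 0.58 (SE 0.23) over all 10 libraries (adjusted p 0.408, edgeR) and 0.90 (SE 0.14) over the 8 (0.00757). Without DMM replicate 4 the median over the 8 was 1.19, with 12 of 12 called, against 14.3% of all tested genes in either direction. In that fit 24 of the 77 protein genes were higher at an adjusted p under 0.05 as well, against 14.3% of all tested genes. Whether the messages differ from the 77 genes was not tested. The ribosomal RNAs mt-Rnr1 and mt-Rnr2, the RNA core of the same ribosome, had a mean difference from the PBS mean of 0.16, -0.49, 0.37, 0.03 and -0.07 in PBS replicates 1 to 5 and -0.27, 0.27, -0.08, 2.96 and 0.40 in DMM replicates 1 to 5. DMM replicate 4 was far above the rest, and over the 8 libraries 0 of 2 passed an adjusted p under 0.05, against 1 of 2, mt-Rnr2 at 0.53, without it (edgeR). At an unadjusted p under 0.05, 1 of 2 was higher over the 8, against 10.8% of all tested genes.

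Nuclear genes of the respiratory chain, whose products meet those messages in the inner membrane, resembled the 77 in their order of libraries, at a larger scale. The mean difference of 81 tested genes (86 listed) from the PBS mean was -0.04, -0.01, 0.34, -0.16 and -0.12 in PBS replicates 1 to 5 and -0.12, 0.27, 0.44, -0.83 and 0.53 in DMM replicates 1 to 5. DMM replicate 4 was the lowest library here too, DMM replicate 5 the highest, and PBS replicate 3 the highest of its group. Over the 8 libraries their median was 0.29, with 3 higher at an adjusted p under 0.05 and 1 called, Ndufs1 at 0.66 (SE 0.12, adjusted p 0.0162, edgeR). Of all tested genes, 7.17% passed that adjusted p and 6.30% were called, in either direction. Without DMM replicate 4 the median was 0.53, and 75 of 81 were higher at an adjusted p under 0.05, against 14.3% of all tested genes. In that fit 24 of the 81 were called, against 14.3% of all tested genes in either direction. Over all 10 libraries the median was 0.15, with 0 at an adjusted p under 0.05, against 0 of all tested genes. At an unadjusted p under 0.05, 1 was higher, against 4.40% of all tested genes. Cytosolic ribosomal protein genes, 81 tested of 84, had medians of -0.08 over all 10 libraries, -0.10 over the 8 and 0.04 without DMM replicate 4. At an adjusted p under 0.05, 0, 0 and 1 passed (edgeR), the 1 being higher. Of all tested genes, 0 passed over all 10 and 7.17% over the 8, in either direction, and 14.3% were higher without DMM replicate 4. At an unadjusted p under 0.05, 0 were higher and 1 lower over all 10, against 4.40% and 6.49% of all tested genes. Over the 8 it was 0 and 0, against 10.8% and 10.8%. Of 13 regulators of such nuclear genes, 1 was called over the 8, against 6.30% of all tested genes. It was the coactivator Ppargc1a, at 1.09 (SE 0.27, adjusted p 0.0450, edgeR), at 0.77 without DMM replicate 4 and at 0.77 over all 10 (0.409).

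Markers of proximal tubule cells were high in the libraries where the 77 genes were high, and also in DMM replicate 4, where the 77 were low. Their summed level, of 10 markers with Lrp2 as the most abundant and none at 0, was 2294, 2350.2, 5265, 1025 and 1874 CPM in PBS replicates 1 to 5 and 1686, 4480.0, 5314, 4084 and 6327 CPM in DMM replicates 1 to 5. PBS replicate 3 and DMM replicates 2 to 5 were high, and PBS replicate 4 was the lowest. Among all tested genes, 6.30% were called over the 8 libraries and 14.3% without DMM replicate 4, in either direction. Of the 10 markers, 5 were called higher over the 8 libraries, with a median log2 fold change of 1.66, and 9 without DMM replicate 4. Over all 10 libraries 0 were called, against 0 of all tested genes. At an unadjusted p under 0.05, 2 were higher there (edgeR), against 4.40% of all tested genes. The 8 libraries leave out the PBS library of the highest and the DMM library of the lowest summed level, so that the set and these calls are not independent. In bulk kidney, fewer cells of a type and less RNA per cell cannot be told apart, and the part of tubule markers in the values of the 77 genes was not tested.

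Over the 8 libraries, where 6.30% of all tested genes were called in either direction, other markers gave the following medians of log2 fold change. They were 1.08 for the loop of Henle (1 of 2 called, Slc12a1), 0.95 for the distal tubule (Slc12a3, the 1 tested, called), 0.38 for the collecting duct (0 of 3), -0.15 for podocytes (0 of 2) and -0.02 for endothelium (0 of 4). Fibroblast markers had -0.85, with 1 of 4 called lower, Col1a2, and macrophage markers -0.81, with 1 of 4 called lower, Cd68. The summed level of the fibroblast markers, of which Col1a1 was the most abundant and none was at 0, was 4258, 5914, 3065, 8476 and 5659 CPM in PBS replicates 1 to 5 and 6870.5, 3162, 2135, 3401 and 2525 CPM in DMM replicates 1 to 5. That of the macrophage markers, with C1qa the most abundant and none at 0, was 846, 768, 671, 786 and 879 CPM in PBS replicates 1 to 5 and 698, 512, 422, 349 and 426 CPM in DMM replicates 1 to 5. The fibroblast markers were low in PBS replicate 3, which was high for the 77 genes, and in DMM replicates 2 to 5. T cell markers had -1.14 (0 of 3 called), B cell markers -0.65 (0 of 3), neutrophil markers 0.05 (0 of 2 tested), erythroid markers 1.46 (0 of 3) and hepatocyte markers 2.19 (1 of 2 tested called, Alb). Adipocyte markers were not tested over the 8. At an unadjusted p under 0.05, 2 collecting duct and 3 erythroid markers were higher and 3 T cell markers lower (edgeR). Podocyte, endothelial, B cell and neutrophil markers had 0. Of all tested genes, 10.8% were higher and 10.8% lower at that p over the 8. Over all 10 libraries 0 of these markers were called, and over the 8 without DMM replicate 4 more were called in the same directions, namely 3 of 3 erythroid, 2 of 2 loop of Henle, 2 of 2 hepatocyte and 1 of 3 collecting duct markers higher, and 2 of 4 fibroblast, 3 of 4 macrophage and 1 of 3 T cell markers lower. Without DMM replicate 4, 14.3% of all tested genes were called in either direction. The median of the neutrophil markers was then -1.15 and that of the B cell markers -0.27, with 0 called in each. The part of all these markers in the result was not tested either.

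The genes outside the rule whose log2 CPM followed the mean of the 77 most closely across the 10 libraries were Cox6b1, Tecr, Echdc2, Ndufa13 and Atp5d. Pearson's r was 0.999 for Cox6b1, a subunit of cytochrome c oxidase, and 0.997, 0.997, 0.996 and 0.996 for the others. Without DMM replicate 4, r over 9 libraries was between 0.978 and 0.994. These genes were picked for this likeness, so that r is a description. Tecr makes very long fatty acids, and Ndufa13 and Atp5d are subunits of complex I and ATP synthase.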

How the data were processed

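RNA of 10 whole kidneys, 1 library per mouse, was analysed. The authors deposited counts of reads per gene, without normalization, after alignment to mm10 (HISAT2 2.0.5 in the submitters' processing notes). The counting tool and strand setting are not given in the sources used here. The authors also deposited FPKM, scaled by gene length in bp and an effective library size, which served here for levels between genes alone. The signal that the authors deposited as group means is counts divided by size factors, and it was used to find which 8 libraries it weights. The deposited fold change and p columns hold the authors' DESeq2 comparison and were not used. Unused per-sample columns number 0.

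The 78 genes and the lists were chosen with earlier results of these data known. Lists comprised other mitoribosomal proteins, assembly factors, translation factors, aminoacyl-tRNA synthetases, mitochondrially encoded messages and ribosomal RNAs, regulators, cytosolic ribosomal proteins, nuclear respiratory chain genes and markers of 14 cell types. Symbols ending in -ps, 5 processed pseudogenes with 0 to 217 counts over all libraries, were not included. Counterparts in bacteria were taken by number, up to 36 in the large and 21 in the small subunit, with Mrpl47, Mrpl55 and Mrps24. Named genes were the 3 highest and 3 lowest by FPKM, the 4 largest log2 fold changes in each direction over 10 libraries, the 3 smallest p in each direction over the 8, 12 genes by role, and genes that failed the filter, 29 in all. In other lists, called genes or the 2 of smallest p over the 8 could be named. Further genes, among them Mrpl30, Mrpl32, Mrpl43, Mrpl49 and their neighbours, were named after values were seen.

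Genes were filtered by filterByExpr, scaled by TMM and tested by the quasi-likelihood F test of edgeR 4.0.16 in R 4.3.3, with Benjamini-Hochberg adjustment over all tested genes. A call needs an adjusted p below 0.05 together with a change of more than 1.5-fold. SE is the log2 fold change divided by the square root of F. Log2 CPM has a prior count of 2. Alternatives used DESeq2 1.42.0 and limma 3.58.1. Figures and sums used Python 3.11.15, pandas 2.3.3, numpy 2.4.6, scipy 1.17.1 and matplotlib 3.10.9. The steps were tested on simulated data. Total counts were 15722527 to 19475833 per library; 3 counts correspond to 0.154 to 0.191 CPM, for counting error only.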

Additional observations from a re-analysis of the deposited data

Results flagged for a closer look

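In groups of 5 libraries, the gap between the extreme library and its nearest neighbour was compared with the whole range of the group, and a ratio above 0.71 marks a library far from the others. Of 58 groups examined, 17 passed that limit, 15 of them through DMM replicate 4. Chance passes about 1 in 20 groups that were not picked by their values. Part of the genes here were named for large log2 fold changes over these same libraries. That rate is therefore no measure for the count. The groups share libraries and are not independent.

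The mean log2 CPM of the 77 genes had a ratio of 0.731 in PBS kidneys, with PBS replicate 3 the highest. In DMM kidneys, DMM replicate 4 was the lowest library for Mrpl34 (0.785), Mrps21 (0.793), Mrpl2 (0.759), Mrps25 (0.765), Mrpl27 (0.883), Mrpl21 (0.792), Mrpl40 (0.832), Mrpl23 (0.753), Mrps12 (0.867), Mrps18a (0.825), Mrpl44 (0.897), Mrps34 (0.728), Mrps16 (0.872) and Mrps36 (0.820). It was the highest library for Mrpl1, with a ratio of 0.727. For Mrps35 DMM replicate 1 was the lowest, with a ratio of 0.855. The cause of these positions was not tested.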

How the results depend on the processing

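Over all 10 libraries, 0 of the 77 genes and 0 of all genes were called with RLE size factors, library size alone, either other filter, protein-coding genes alone, limma with a length correction, and limma without a correction or with one for length and GC (these last added after the data were seen). DESeq2 called 41 genes in all and 0 of the 77. With each library left out in turn, 0 of the 77 were called and 0 to 486 of all genes, the 486 without DMM replicate 1. Over the 8 libraries, the 77 had 0 calls under the same alternatives and 0 to 1 with a library left out, the 1 without DMM replicate 4. With RLE size factors or library size alone and that library left out, both added after the data were seen, 1 of the 77 was called, with 2410 and 2475 genes in all. All genes called over the 8 numbered 1663 by DESeq2 and 407 (without PBS replicate 5) to 2410 (without DMM replicate 4) with a library left out. With library size alone, 976 genes were called, 276 higher and 700 lower, which puts the share of higher ones at 28.3% in place of 43.4%.

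The mean difference of the 77 moved most when DMM replicate 4 was left out, from -0.01 to 0.21 over the 8 libraries and from -0.04 to 0.12 over all 10. These moves are smaller than the SD between mice with that library (0.30 and 0.27) and larger than the SD without it (0.03 and 0.10). The SD of 0.03 comes from libraries that also leave out PBS replicate 3 and DMM replicate 1. The signs of small log2 fold changes over all 10 libraries were not stable. Replicate numbers gave no sign of paired mice: departures from the group means correlated with r from -0.223 to 0.341 between equal numbers, the own number was the best match for 1 of 5 PBS and 2 of 5 DMM libraries, and the replicate block gave a mean difference of -0.04 and 0 calls, with -0.0176 for Mrpl2 and -0.0608 for Mrps16. The length correction gave 0.0374 for Mrps18c, 0.00478 for Mrps34 and -0.0114 for Mrps16. Library size alone gave -0.000667 for Mrpl2, -0.0472 for Mrpl58 and -0.0401 for Mrps16. The 8 libraries gave 0.0367 for Mrpl34 and 0.00295 for Mrps18c. With a library left out, log2 fold changes ranged over Mrpl34 -0.20 to 0.18, Mrps21 -0.19 to 0.15, Mrpl2 -0.0256 to 0.25, Mrps25 -0.20 to 0.0465, Mrpl40 -0.31 to 0.0346, Mrps11 -0.26 to 0.0167, Mrpl52 -0.23 to 0.0362, Mrpl23 -0.20 to 0.0460, Mrps12 -0.13 to 0.22, Mrpl58 -0.0426 to 0.11, Mrps18a -0.14 to 0.17, Mrpl44 -0.11 to 0.13, Mrps34 -0.11 to 0.0635, Mrps22 -0.0385 to 0.21, Mrps16 -0.0593 to 0.22 and Mrps36 -0.0268 to 0.25. The cause was not tested. With 5 mice a group, and a whole kidney per library, cell types are not resolved.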
